A study of Dunaliella viridis with 39 samples.

Results

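The comparison set Dunaliella viridis cells that had been in glutamine medium for 51 h against cells that had been without nitrogen for the same 51 h, in 3 libraries per medium. These 6 of the 39 libraries of the series were taken by their labels, and all 18495 loci of the count table entered the comparison. Dunaliella viridis is a unicellular green alga that lives in salt water. The glutamine cultures, strain dumsii, held 5 mM L-glutamine, and the no nitrogen cultures, of the same strain, held 0 mM added nitrate and no other added nitrogen source. Both media were started from the same nitrate-grown inoculum within a repeat of the experiment, in 450 ml of medium at 23.5 °C with the light never switched off. The experiment was carried out 3 times, and each treatment culture was set up in duplicate. The sources used here do not say whether a library holds 1 or both of the duplicates. The other groups named here are 5 mM nitrate, 5 mM glutamate, which the labels describe as an amino acid that these cells do not use, and the inoculum, each with 3 libraries per time.

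Green algae take up nitrogen as nitrate, ammonium or small organic compounds. Nitrate is reduced to ammonium, ammonium is joined to glutamate by glutamine synthetase, and glutamine hands its amide nitrogen on to the other amino acids. Algae that run out of nitrogen generally slow their division, break down part of their photosynthetic apparatus and store carbon as starch or neutral lipid. The series title describes the glutamine treatment as a supply of ammonium that derives from glutamine. The comparison at 51 h asks how far cells on this source differ from fully starved cells late in the culture. Loci carry only a number in the files, without a gene name, so no pathway could be followed and the results are given for sets of loci. Levels are given as CPM, the counts-per-million scale, on library sizes scaled between libraries. They are shares of a library, and a change in the amount of RNA per cell cannot be told apart from them.

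Total counts of the 6 libraries were 5406060, 4380559 and 13022468 in glutamine replicates 1 to 3 and 3406918, 10481703 and 32256557 in no nitrogen replicates 1 to 3, against a range of 3342102 to 41114965 over all 39 libraries. The lowest number of loci with a count was in no nitrogen replicate 1, with 15777 of 18495, against 17719 or more in each of the other 38 libraries. In that library 1868 loci were at 0 that had counts in the other 5, while glutamine replicates 1, 2 and 3 had 144, 76 and 33 such loci and no nitrogen replicates 2 and 3 had 0. Its log2 CPM values correlated with those of the other 2 no nitrogen libraries at Pearson's r of 0.875 and 0.887, computed over loci, which are no independent replicates. The other 2 no nitrogen libraries correlated at 0.985 with each other, and the glutamine libraries at 0.946 to 0.952. The main counts, the called sets, the named loci and the lists are therefore also given without it, and the per-library shares of counts and repeat differences show it on its own. The 10 most abundant loci of the 6 libraries together took 43.0% to 59.1% of the counts of a library. Of these 10, 0 were called in either direction, against 21.2% of all tested loci and 9.09% of those of 1000 CPM and over. Their log2 fold changes of glutamine over no nitrogen ranged from -0.36 to 0.74.

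At 51 h the glutamine cells differed from the starved cells in 3717 of the 17569 loci tested, or 21.2% (edgeR quasi-likelihood test, Benjamini-Hochberg adjusted p under 0.05, n = 3 per group). In glutamine 1943 loci were higher, 11.1% of those tested, and 1774 were lower, 10.1%. The median log2 fold change was 0.81 for the higher loci, with quartiles of 0.64 and 1.04, and -1.17 for the lower loci, with quartiles of -1.65 and -0.85. At least 2-fold differences were found for 549 of the higher loci (3.12% of those tested) and for 1101 of the lower loci (6.27%). At least 4-fold differences were found for 23 higher and 238 lower loci, and at least 8-fold differences for 2 higher and 45 lower loci. The gap between the directions at 2-fold was smaller in some other settings. There were 339 higher and 359 lower loci without glutamine replicate 3, and 422 and 455 in the fit of the compared groups alone. At an adjusted p under 0.01 there were 450 and 551. Within sequencing run 1, with 1 library per group, the higher loci were the more numerous at 2-fold. With no nitrogen replicate 1 left out, the median log2 fold change was 0.85 for the loci then called higher and -1.20 for those called lower, with 32 and 230 of them at least 4-fold apart. The median log2 fold change of all tested loci was -0.06.

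The split between the directions was not the same in each setting. RLE size factors in edgeR gave 2045 higher and 1719 lower loci. On the log2(TPM + 1) scale of the authors' TPM values, limma called 28 loci higher and 525 lower. The median log2 fold change of all tested loci was -0.27 on this scale. TPM are scaled per transcript length, and the TMM factors that scale libraries in the edgeR fit were not applied to them. These factors averaged 0.88 in glutamine and 1.08 in no nitrogen. This setting thus changes the test, the length scaling and the scaling between libraries, and the part of each was not tested. Within sequencing run 2, which held 2 libraries of each group, edgeR called 1887 higher and 1891 lower. Within run 1, with 1 library per group and the spread taken from the other groups of that run, it called 162 higher and 85 lower.

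**Figure D1:**
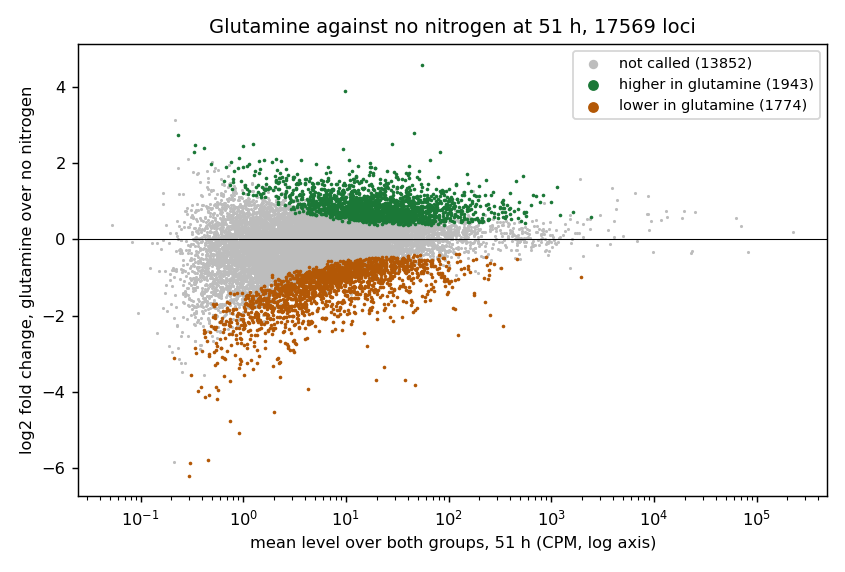
Log2 fold change of glutamine over no nitrogen at 51 h (vertical axis) against the mean level over both groups in CPM (horizontal axis, log scale), 1 point per tested locus. Loci called higher in glutamine (1943, green) lie mostly between 10 and 1000 CPM, and loci called lower (1774, brown) reach further from 0 and to lower levels.

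The loci called higher were the more abundant ones. Among loci with a mean of 10 to 100 CPM over both groups, 22.3% of 5817 were called higher and 10.9% lower. Among the 530 loci of 100 to 1000 CPM, 28.3% were called higher and 6.79% lower. Among the 9294 loci of 1 to 10 CPM the order was the opposite, with 5.05% called higher and 10.7% lower, and among the 1862 loci under 1 CPM it was 1.02% and 5.91%. Of the 66 loci of 1000 CPM and over, 5 were higher and 1 was lower. The median log2 fold change of all loci of a class was -0.48 under 1 CPM, -0.19 at 1 to 10 CPM, 0.15 at 10 to 100 CPM, 0.24 at 100 to 1000 CPM and 0.26 at 1000 CPM and over. Without no nitrogen replicate 1, 29.6% of the loci of 10 to 100 CPM were called higher and 9.42% lower, and 6.73% and 9.61% of those of 1 to 10 CPM. Together the loci called higher made up 6.89%, 10.8% and 10.8% of the counts in glutamine replicates 1, 2 and 3, against 4.34%, 8.14% and 7.29% in no nitrogen replicates 1, 2 and 3. The loci called lower made up 1.49%, 2.36% and 1.64% in glutamine, against 2.64%, 5.62% and 4.88% in no nitrogen. On TMM-scaled libraries the loci called higher summed to 103149, 100521 and 120961 CPM in glutamine, against 64223, 58879 and 61548 CPM in no nitrogen, and the loci called lower to 22352, 21860 and 18371 CPM in glutamine, against 39063, 40672 and 41236 CPM in no nitrogen. The groups overlapped in the unscaled share of the higher loci and in none of the other 3 of these sums, which describe sets that the same libraries chose.

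The libraries of the groups did not overlap for 1726 of the higher loci and for 1363 of the lower loci. Over all tested loci they did not overlap for 29.8%, with glutamine above for 15.6% and below for 14.2%. Within the repeats of the experiment, glutamine was above no nitrogen for 1866 of the 1943 higher loci in repeat 1, for 1941 in repeat 2 and for 1943 in repeat 3. It was below for 1530 of the 1774 lower loci in repeat 1, for 1770 in repeat 2 and for 1774 in repeat 3. The median difference in log2 CPM within repeats 1, 2 and 3 was 0.72, 0.73 and 0.94 for the higher loci and -0.76, -0.95 and -1.38 for the lower loci, against 0.08, -0.02 and -0.06 for all tested loci. Repeat 3 thus showed the widest differences for both sets, which these libraries themselves had chosen. The number of calls rested on particular libraries: without glutamine replicate 3 it was 891 higher and 569 lower, without no nitrogen replicate 2 it was 1204 higher and 1086 lower, and without no nitrogen replicate 3 it was 1410 higher and 1172 lower.

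Without no nitrogen replicate 1, the library that stood apart, 2554 loci were called higher (14.4% of those tested) and 1607 lower (9.05%). Of the 1943 loci called higher with all libraries 1882 were called again, and of the 1774 called lower 1384 were. No locus, that is 0 in either direction, was called the other way. A further 672 higher and 223 lower loci were called only without it. Loci at least 2-fold apart then numbered 807 higher and 1040 lower. The median log2 fold change of all tested loci was 0.03 without this library. Of the 1868 loci at 0 in it alone, 1655 were tested, and 66 of these were called higher and 37 lower in the fit with all libraries. Their median level in no nitrogen replicates 2 and 3 was 1.21 CPM. Of all tested loci 11.1% were called higher and 10.1% lower in that fit, both larger shares than 66 and 37 of 1655.

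The loci with the largest differences were followed one by one, among those with a mean of at least 10 CPM, no overlap between the groups and a call that also held without no nitrogen replicate 1. The one furthest above the starved level was Locus_1065, at 131, 95.3 and 91.5 CPM in glutamine replicates 1, 2 and 3, against 6.08, 3.80 and 4.27 CPM in no nitrogen replicates 1, 2 and 3. The log2 fold change was 4.59 (SE 0.26, n = 3, edgeR adjusted p = 2.52e-15), or 24.0-fold, and it was 4.77 without no nitrogen replicate 1. Locus_1180 was at 100.0, 75.0 and 67.9 CPM in glutamine, against 7.82, 13.4 and 12.3 CPM in no nitrogen. Its log2 fold change was 2.78 (SE 0.26, n = 3, edgeR adjusted p = 9.32e-10), and 2.73 without no nitrogen replicate 1. Per length, the mean level in glutamine was 67.4 ± 6.54 TPM for Locus_1065 and 47.5 ± 7.10 TPM for Locus_1180, against 3.87 ± 0.603 TPM and 9.19 ± 4.97 TPM in no nitrogen (SD, n = 3).

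Both loci were far higher still in nitrate at 51 h, at 1387 ± 211 CPM for Locus_1065 and 639 ± 144 CPM for Locus_1180 (SD, n = 3). The nitrate cells were thus above the glutamine cells, with glutamine over nitrate at -3.71 on the log2 scale (SE 0.23, edgeR adjusted p = 1.03e-14) for Locus_1065 and at -2.99 (SE 0.25, edgeR adjusted p = 1.4e-11) for Locus_1180. At 3 h neither locus was called between glutamine and no nitrogen, with edgeR adjusted p = 0.698 for Locus_1065 and 0.667 for Locus_1180. At 27 h Locus_1065 averaged 262 ± 42.6 CPM in glutamine cells and 6.20 ± 1.17 CPM in starved cells, and Locus_1180 at 123 ± 16.1 CPM and 16.1 ± 6.95 CPM (SD, n = 3). In the inoculum Locus_1065 stood at 364 ± 22.9 CPM and Locus_1180 at 174 ± 17.9 CPM, so the glutamine levels at 51 h were below those at the start of the cultures for both loci.

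By the same rule, the locus furthest below the starved level was Locus_253, at 8.31, 3.81 and 6.53 CPM in glutamine replicates 1, 2 and 3, against 113, 63.8 and 86.4 CPM in no nitrogen. The log2 fold change was -3.81 (SE 0.34, n = 3, edgeR adjusted p = 7.18e-10), or 14.0-fold lower in glutamine, and -3.52 without no nitrogen replicate 1. Locus_13192 was at 4.43, 2.96 and 1.63 CPM in glutamine, against 56.1, 25.4 and 27.3 CPM in no nitrogen. Its log2 fold change was -3.69 (SE 0.56, n = 3, edgeR adjusted p = 1.35e-05), and -3.22 without no nitrogen replicate 1, in which it was highest. In nitrate at 51 h Locus_253 was at 0.884 ± 0.251 CPM and Locus_13192 at 1.54 ± 1.59 CPM (SD, n = 3).

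The loci furthest below the starved level stood differently toward nitrate. At 51 h glutamine exceeded nitrate for Locus_253, by 2.87 on the log2 scale (SE 0.49, edgeR adjusted p = 5.21e-05), while the difference was not called for Locus_13192 (0.78, with a 95% interval of -0.64 to 2.19, edgeR adjusted p = 0.571). Earlier, at 27 h, Locus_253 averaged 1.25 ± 0.601 CPM in glutamine cells and 25.8 ± 2.90 CPM in starved cells, and Locus_13192 at 0.727 ± 0.293 CPM and 6.54 ± 3.80 CPM (SD, n = 3). The change of the difference between 27 and 51 h was not called for any of the 4 loci, with the lowest edgeR adjusted p at 0.179 for Locus_1065. In glutamate, the other medium without usable nitrogen, the 51 h means were 5.21 ± 0.547 CPM for Locus_1065, 13.3 ± 2.92 CPM for Locus_1180, 69.7 ± 22.7 CPM for Locus_253 and 24.9 ± 7.41 CPM for Locus_13192 (SD, n = 3). All of these lay closer to the no nitrogen means than to the glutamine means.

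**Figure D2:**
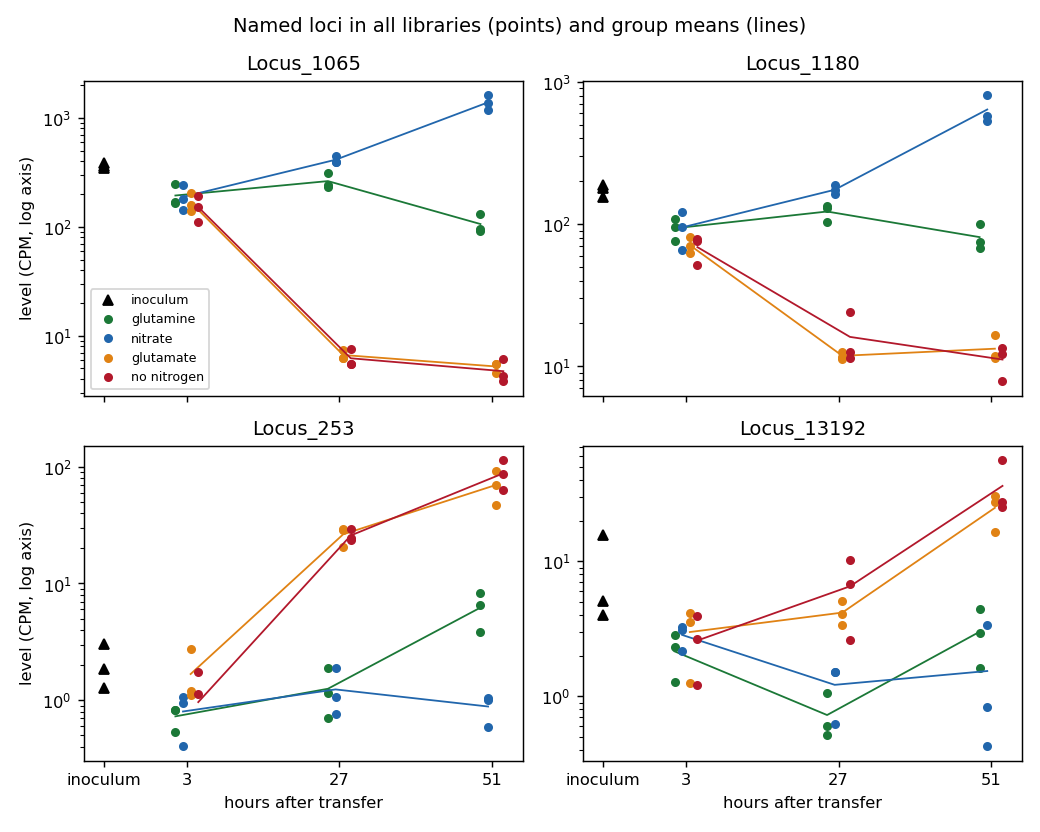
Levels of the 4 named loci in CPM (vertical axes, log scale) against hours after transfer, with the inoculum at the left. Points are single libraries, lines join group means. At 51 h glutamine (green) lies between nitrate (blue) and no nitrogen (red) for Locus_1065, Locus_1180 and Locus_253, and at 27 h it lies near nitrate.

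The called sets were then looked up in the other groups, whose libraries were not compared but shared the filter and the estimate of spread. Among the loci called higher in glutamine, the median level was 23.0, 22.2 and 27.5 CPM in glutamine replicates 1, 2 and 3 and 14.3, 13.2 and 14.0 CPM in no nitrogen replicates 1, 2 and 3, which is how the set was chosen. The same loci had medians of 27.7, 26.2 and 30.1 CPM in the nitrate libraries of 51 h, 22.9, 23.7 and 26.7 CPM in the inoculum and 14.8, 13.2 and 14.0 CPM in the glutamate libraries of 51 h. Nitrate and the inoculum thus stood near glutamine, and glutamate stood near no nitrogen. The loci called lower had medians of 4.99, 4.66 and 3.14 CPM in glutamine and 8.69, 9.32 and 9.32 CPM in no nitrogen. They had 3.56, 3.92 and 3.32 CPM in nitrate, 4.33, 4.05 and 3.63 CPM in the inoculum and 8.32, 9.69 and 9.30 CPM in glutamate. All tested loci had medians between 5.45 and 6.22 CPM in these 15 libraries. Without no nitrogen replicate 1, the loci then called higher had medians of 24.5 to 27.9 CPM in nitrate and 12.2 to 13.9 CPM in glutamate, and those called lower 3.13 to 3.70 CPM in nitrate and 7.65 to 9.40 CPM in glutamate. Sets called from the 6 compared libraries alone, in an alternative added after the data were seen, left the other groups out of the choice. Their 986 higher loci had medians of 32.0 to 39.3 CPM in glutamine, 41.1 to 46.2 CPM in nitrate, 33.2 to 38.7 CPM in the inoculum, 17.2 to 19.2 CPM in glutamate and 17.2 to 18.7 CPM in no nitrogen. Their 657 lower loci had medians of 6.36 to 8.59 CPM in glutamine, 5.53 to 6.27 CPM in nitrate, 6.82 to 7.74 CPM in the inoculum, 17.2 to 18.6 CPM in glutamate and 18.2 to 18.8 CPM in no nitrogen.

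**Figure D3:**
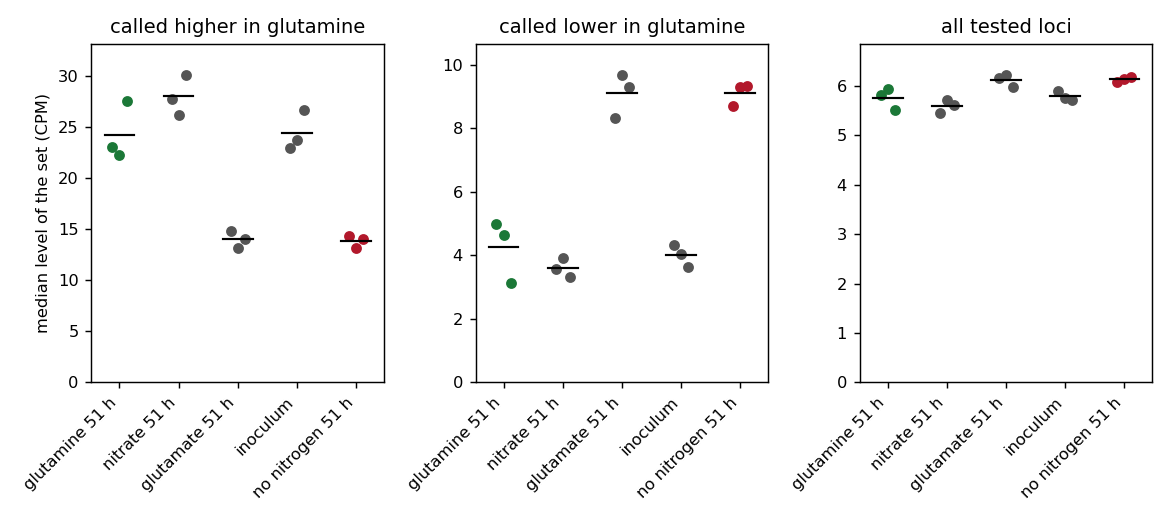
Median level in CPM of the loci called higher in glutamine (left), called lower (middle) and of all tested loci (right), 1 point per library, with a bar at the mean of the 3 libraries of a group. The sets were chosen by the contrast of glutamine and no nitrogen at 51 h, in a fit that all groups shared. For both sets nitrate and the inoculum lie near glutamine, and glutamate near no nitrogen.

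Glutamate against nitrate at 51 h gave a list of loci from 6 other libraries, grown in the same repeats of the experiment. The list was called in the fit of all 39 libraries. Its filter, library scaling and estimates of spread thus drew on the compared libraries too, and the part of this in the shared calls was not tested. Of the 3763 loci higher in glutamate than in nitrate (21.4% of those tested), 1446 were called lower in glutamine than in no nitrogen, which is 38.4%, against 10.1% of all tested loci, and 22 were called higher. They made up 81.5% of all loci called lower. Their median log2 fold change of glutamine over no nitrogen was -0.74, with quartiles of -1.15 and -0.39. Of the 3613 loci lower in glutamate than in nitrate (20.6% of those tested), 1615 were called higher in glutamine than in no nitrogen, which is 44.7%, against 11.1% of all tested loci, and 9 were called lower. They made up 83.1% of all loci called higher, and their median log2 fold change was 0.55, with quartiles of 0.33 and 0.82. Without no nitrogen replicate 1, 1366 loci of the first list were lower and 2067 of the second higher, with medians of -0.70 and 0.69. The medians within repeats 1, 2 and 3 were -0.30, -0.58 and -0.98 for the loci high in glutamate and 0.38, 0.52 and 0.71 for those low in glutamate. Most loci of each list, 2295 and 1989 in number, were not called between glutamine and no nitrogen. With the lists called anew in each setting, the 1446 and 1615 calls became 499 and 807 without glutamine replicate 3. They became 899 and 1062 without no nitrogen replicate 2, and the 1446 became 924 without no nitrogen replicate 3. With each comparison fitted on its own libraries alone, they became 583 of 3249 and 893 of 3474 loci. On log2(TPM + 1) limma gave 461 of 4566 and 21 of 381, where it called 525 loci lower and 28 higher in all. On log2(TPM + 0.1) it gave 249 of 3550 and 15 of 331.

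A list from an earlier time, called in the same fit of all 39 libraries, gave a like division. Of the 3541 loci higher without nitrogen than in nitrate at 27 h (20.2% of those tested), 1160 (32.8%) were lower in glutamine than in no nitrogen at 51 h and 47 (1.33%) were higher, against 10.1% lower and 11.1% higher of all tested loci. Of the 3358 loci lower without nitrogen at 27 h (19.1%), 1334 (39.7%) were higher in glutamine at 51 h and 16 (0.476%) were lower. The median log2 fold changes of glutamine over no nitrogen at 51 h were -0.65 and 0.49. Without no nitrogen replicate 1 the same lists held 1095 lower and 1698 higher loci, with medians of -0.61 and 0.61. The 1160 and 1334 calls became 428 and 704 without glutamine replicate 3 and 749 and 889 within run 2. The 1160 became 738 without no nitrogen replicate 2 and 754 without no nitrogen replicate 3. With each comparison fitted on its own libraries alone, the 1160 and 1334 became 496 of 3039 and 703 of 2806 loci. On log2(TPM + 1) limma gave 284 of 1571 and 15 of 321, and on log2(TPM + 0.1) 158 of 1466 and 11 of 319. Glutamine against nitrate at 27 h gave 17 higher loci (0.0968% of those tested), of which 2 (11.8%) were higher and 7 (41.2%) lower in glutamine than in no nitrogen at 51 h. Their median on the log2 scale was -0.41. The same 17 loci had a median of -0.40 without no nitrogen replicate 1.

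The same contrast was taken at the earlier times from separate libraries of the same repeats, in the same fit of all 39 libraries. At 3 h 66 loci were called (0.376% of those tested), 1 higher in glutamine (0.00569%) and 65 lower (0.370%). At 27 h 6048 loci were called (34.4%), 2971 higher in glutamine (16.9%) and 3077 lower (17.5%), with 1978 lower when no nitrogen 27 h replicate 3 was left out. More loci were thus called at 27 h than at 51 h, a count that also depends on the libraries of each time. On log2(TPM + 1) limma called 374 higher and 438 lower loci at 27 h, against 28 and 525 at 51 h. Of the loci higher at 27 h, 1292 were also higher at 51 h, which is 43.5% of the 27 h list, against 11.1% of all tested loci, and 66.5% of the 51 h list. Of the loci lower at 27 h, 1070 were also lower at 51 h, 34.8% of the 27 h list, against 10.1% of all tested loci, and 60.3% of the 51 h list. There were 52 loci lower at 27 h and higher at 51 h, and 17 loci higher at 27 h and lower at 51 h. Of the 65 loci lower in glutamine at 3 h, 28 (43.1%) were lower and 1 (1.54%) was higher at 51 h, beside the same 10.1% and 11.1% of all tested loci. With no nitrogen 51 h replicate 1 left out, 20 of these 65 loci were lower and 1 was higher at 51 h. With the 27 h lists called anew, 1730 loci were then higher and 944 lower at both times. Without glutamine 51 h replicate 3 the shared higher and lower loci of 27 and 51 h numbered 701 and 418. The shared lower loci numbered 694 and 709 without replicate 2 or replicate 3 of no nitrogen at 51 h. With each time fitted on its own libraries alone, the shared higher and lower loci numbered 710 and 468. On log2(TPM + 1) limma gave 16 and 143 shared loci, and on log2(TPM + 0.1) 11 and 71.

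Whether the difference itself changed between the times was tested as an interaction of medium and time. It changed for 678 loci, 3.86% of those tested (edgeR, adjusted p under 0.05), and became more positive for 441 (2.51%) and more negative for 237 (1.35%). With the replicate number as a block, the difference became more negative for 373 loci. Most of the 441 loci lost a deficit: 376 were lower in glutamine than in no nitrogen at 27 h, and of these 270 were not called at 51 h, 54 were still lower and 52 were higher. Another 62 were not called at 27 h and higher at 51 h. The median level of the 441 loci in glutamine was 15.9 CPM at 27 h and 30.5 CPM at 51 h, against 32.9 CPM and 27.3 CPM in no nitrogen, and 15.7 CPM in nitrate at 51 h. In the fit of the 4 compared groups alone, which nitrate did not enter, 287 loci became more positive and 144 more negative. The 287 loci had medians at 51 h of 16.8 CPM in nitrate, 39.8 CPM in glutamine and 37.5 CPM in no nitrogen. The 144 loci had 50.6, 25.3 and 24.0 CPM in the same order.

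The 237 loci mirrored this. At 27 h 203 of them were higher in glutamine than in no nitrogen, and of these 128 were not called at 51 h, 58 were still higher and 17 were lower. Their median level in glutamine was 40.7 CPM at 27 h and 23.1 CPM at 51 h, against 16.5 CPM and 21.2 CPM in no nitrogen, and 41.1 CPM in nitrate at 51 h. In both sets the median moved further in glutamine than in no nitrogen between the times. Without glutamine 51 h replicate 3 the difference became more positive for 274 loci, and without glutamine 27 h replicate 3 it became more negative for 143. Without no nitrogen 51 h replicate 1 there were 490 and 217 loci, which included 400 of the 441 and 176 of the 237.

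**Figure D4:**
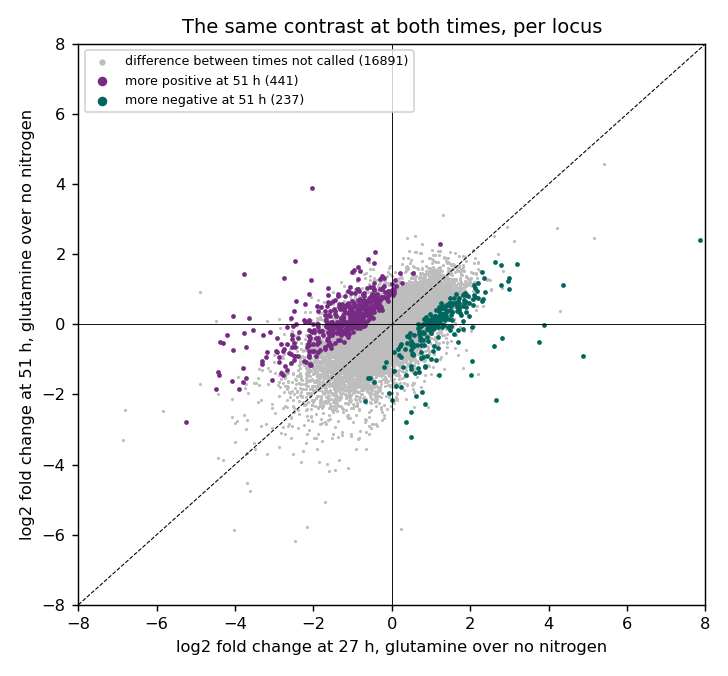
Log2 fold change of glutamine over no nitrogen at 51 h (vertical axis) against the same at 27 h (horizontal axis), 1 point per tested locus, with the line of equal values dashed. The 441 loci whose difference became more positive (purple) lie mostly left of 0 and near 0 on the vertical axis, and the 237 that became more negative (teal) mostly right of 0.

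The loci called lower came from longer transcripts than the others. The ratio of counts to TPM is proportional to the effective length that the authors' processing used, and it was scaled here to a median of 1 over all tested loci, with quartiles of 0.563 and 1.55. The median relative length was 1.09 for the loci called higher, with quartiles of 0.799 and 1.53, and 1.44 for the loci called lower, with quartiles of 0.839 and 2.26. The lower loci also had the longest median at like abundance. Among loci of 10 to 100 CPM the median relative length was 1.19 for the higher loci, 2.26 for the lower loci and 1.49 for all tested loci. Among loci of 1 to 10 CPM it was 0.882, 1.15 and 0.902 in the same order. The median relative length without no nitrogen replicate 1 was 1.10 for the higher and 1.48 for the lower loci. Per length, the loci called lower had a median of 2.54 TPM in glutamine and 7.14 TPM in no nitrogen, the loci called higher 18.4 TPM and 13.8 TPM, and all tested loci 4.81 TPM and 6.55 TPM. Longer loci collect more counts at the same TPM, and the part of this in the calls was not tested.

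For many loci the libraries could not tell the media apart in either direction. The fold change had a 95% interval that stayed inside 2-fold for 42.5% of all tested loci and for 49.8% of the 13852 loci that were not called. Without adjustment 6013 loci had p under 0.05. A locus that was not called, and whose interval reached past 2-fold, may therefore still differ 2-fold.

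**Figure D5:**
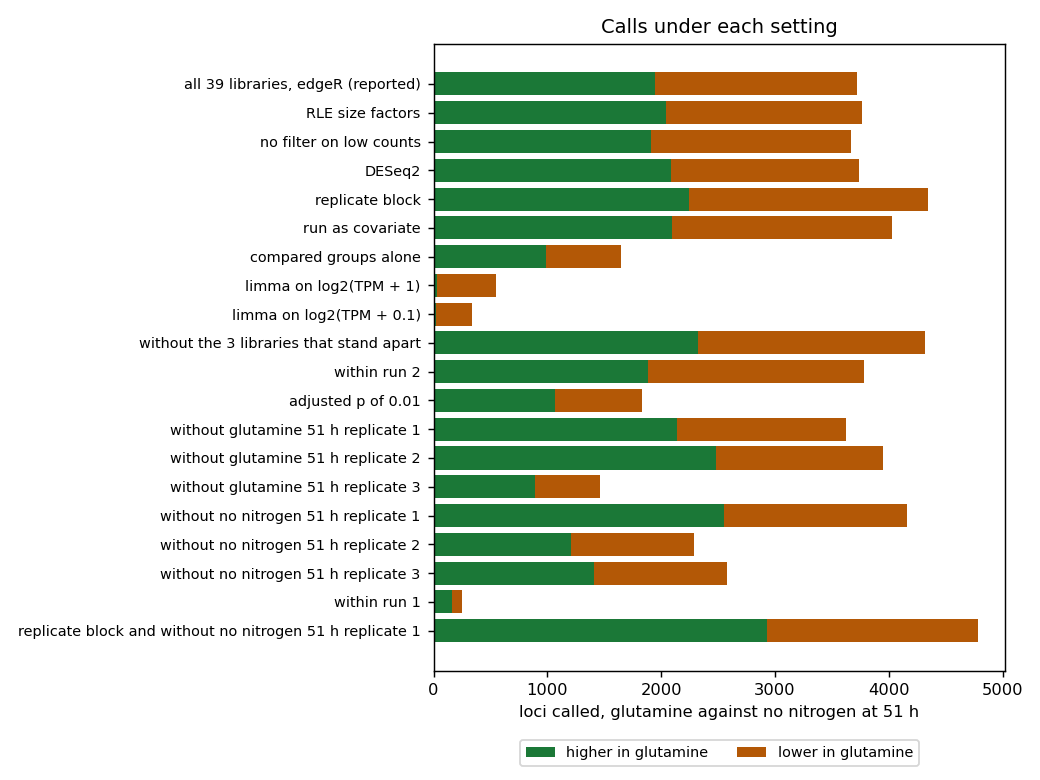
Number of loci called higher (green) and lower (brown) in glutamine than in no nitrogen at 51 h under each setting, stacked from 0. The reported setting gives 1943 and 1774 loci. The shortest bars are those within run 1 and those of limma on TPM values, and among the settings that leave out 1 library the shortest is without glutamine 51 h replicate 3.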

How the data were processed

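The authors deposited a table of whole-number read counts and a table of TPM values, each with a column for every library and 18495 loci. Per the labels' protocols, ribosomal RNA was depleted and strand-specific libraries were read as single ends of 125 bp in 2 runs. Among the tools listed in the submitters' processing notes are STAR, RSEM, FastQC and edgeR 3.4.0. The genome build, strand setting and filters: not given in the sources used here. There were 0 columns without a sample. The members of the comparison and the lists were chosen with earlier results of these data known.

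The tests on counts used edgeR 4.0.16 (R 4.3.3). All 39 libraries entered the quasi-likelihood model, with 1 coefficient for each group, after filterByExpr had removed 926 loci with 0.0235% of the counts, and libraries were scaled with TMM factors (0.617 to 2.16). P-values were adjusted over all tested loci, and called means an adjusted p under 0.05. Standard errors and 95% intervals were derived from the fold change and F value and are approximate. CPM are given on TMM-scaled libraries, log2 CPM with a prior count of 2. Loci were named by a rule: the 2 largest positive and the 2 largest negative log2 fold changes among loci called with and without no nitrogen 51 h replicate 1, with a mean of at least 10 CPM and no overlap between groups, which 1260 higher and 431 lower loci met.

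No pair of libraries within the 2 groups agreed within sampling noise (lowest chi-square per degree of freedom 11.7). Replicate numbers mark a shared repeat and inoculum per the labels and so pair the libraries. The correlation of deviations was 0.0239, 0.290 and -0.0666 across loci between glutamine and no nitrogen libraries of number 1, 2 and 3. Between libraries of unlike number it ranged from -0.239 to 0.170. The replicate block was an alternative fit. Replicate 1 of both groups was in run 1 and replicates 2 and 3 in run 2. Other alternatives were RLE size factors, no filter, DESeq2 1.42.0, run as a covariate, the compared groups alone, limma 3.58.1 on log2(TPM + 1) and log2(TPM + 0.1), an adjusted p of 0.01, run 2 alone and leaving out libraries. Run 1 alone, the levels of sets called from the compared groups alone, the descriptions of the called sets without no nitrogen 51 h replicate 1, and the block without no nitrogen 51 h replicate 1 were alternatives chosen after seeing the data. The fit was tested on simulated counts.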

Additional observations from a re-analysis of the deposited data

Results flagged for a closer look

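The difference between glutamine and no nitrogen was not the same at 51 h as at 27 h for 2 sets of loci, by a test of the difference itself. It was more positive at 51 h for 441 loci and more negative for 237 loci (edgeR interaction, adjusted p under 0.05). On the log2 scale, glutamine over no nitrogen had a median of 0.18 at 51 h and -1.11 at 27 h over the 441 loci, and 351 of them moved at least 2-fold. The 237 loci had medians of 0.06 at 51 h and 1.18 at 27 h, and 161 of them moved at least 2-fold. The choice of the loci by this change draws these medians apart.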

How the results depend on the processing

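All 4 named loci kept their direction and stayed called under each of the 17 alternatives run for them. The rule that named them required a call without no nitrogen 51 h replicate 1, so that outcome was fixed in advance. The alternatives also reuse the libraries that chose these loci, so they are no independent check. The highest adjusted p was 0.00219 for Locus_1065, 0.00834 for Locus_1180, 0.0195 for Locus_253 and 0.00189 for Locus_13192. No named locus and no median of a list changed sign. The larger of the 2 directions did change: lower calls outnumbered higher ones on both TPM scales and within run 2 (1887 higher, 1891 lower). The median of all tested loci, -0.06, changed sign in some settings. It was 0.03 without no nitrogen replicate 1, 0.0017 without glutamine replicate 2 and 0.14 within run 1. The fit of the compared groups alone called 986 higher and 657 lower loci at 51 h (455 of the lower at least 2-fold), an interaction for 287 and 144 loci, and 0 loci higher at 3 h. At an adjusted p of 0.01 there were 1070 and 766 calls, 551 of the lower at least 2-fold. On log2(TPM + 1) limma called 28 and 525 loci at 51 h (28 and 521 at least 2-fold), 374 and 438 at 27 h, 0 and 21 at 3 h, and an interaction for 10 and 13. On log2(TPM + 0.1) it called 22 and 315 (22 and 313 at least 2-fold), 352 and 360 at 27 h, 0 and 29 at 3 h, and an interaction for 10 and 13, and the median of the loci raised without nitrogen at 27 h was -1.01. DESeq2 gave 359 loci with a more negative interaction and 3 higher at 3 h, run as a covariate 3 higher at 3 h, and the fit without the 3 libraries that stand apart (no nitrogen 51 h replicate 1, nitrate 3 h replicate 2 and glutamate 51 h replicate 3) 0 higher at 3 h. Within run 1 the 162 higher and 85 lower calls were all at least 2-fold (162 and 85). The median of the loci higher in glutamine than nitrate at 27 h was -0.15 under DESeq2, -2.69 and -1.94 on the 2 TPM scales and -2.43 within run 2, where the list itself was called anew. The cause of these differences was not tested.

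With the replicate number as a block, 2247 loci were higher and 2096 lower at 51 h, and the interaction was more negative for 373 loci; the block changed no other count by over 1.5 times and ended no call of a named locus. The block without no nitrogen 51 h replicate 1 gave 2927 higher loci, 839 of them at least 2-fold.

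Leaving out 1 library at a time gave 891 to 2554 higher and 569 to 1607 lower loci at 51 h, and 339 to 904 and 359 to 1063 at least 2-fold. The extremes for higher loci were without glutamine replicate 3 and without no nitrogen replicate 1, and 904 was without glutamine replicate 2. The interaction ranged from 274 to 490 and from 143 to 267 loci, the calls at 27 h from 2296 to 3065 and from 1978 to 2749, and those at 3 h from 0 to 1 and from 40 to 67. The median of the loci higher in glutamine than nitrate at 27 h ranged from -0.49 to -0.19. The most negative value was without glutamine replicate 3, and -0.19 was without no nitrogen replicate 1, where the list called anew differs from the 17 loci. No nitrogen replicate 1 had the lowest total count of the 6 libraries and the fewest loci with a count. It limits what can be said of low loci, and the cause of its missing loci was not tested.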
